A study of Bos taurus with 16 samples.

Results

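The suppressors of cytokine signalling form a family of 8 genes, SOCS1 to SOCS7 and CISH, whose transcripts were followed here in cultured cells of the bovine (Bos taurus) corpus luteum. The members were taken by symbol from the 16-sample expression table, which listed 18705 genes, and all 8 were found. Their gene identifiers in the table are 518795 for SOCS1, 338437 for SOCS2, 282081 for SOCS3, 540412 for SOCS4, 514773 for SOCS5, 615146 for SOCS6, 540586 for SOCS7 and 616753 for CISH. No genome positions are given, because the sources used here do not name the genome build.

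Each SOCS protein carries an SH2 domain, which binds phosphorylated tyrosines on receptors or kinases, and a SOCS box, which recruits elongins B and C and cullin 5 to mark bound proteins for destruction. Several members are transcribed in response to the STAT factors that cytokines activate, and their proteins then damp the same signal, so the family is a textbook example of negative feedback. The corpus luteum is the ovarian gland that makes progesterone. In ruminants it is kept alive in early pregnancy by interferon tau (IFNT), a type I interferon from the conceptus, and is brought down in a barren cycle by prostaglandin F2 alpha (PGF2A).

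The cells were primary mixed luteal steroidogenic cells from corpora lutea removed on days 10 to 12 of the oestrous cycle, before the gland meets its first pulses of PGF2A. They attached overnight in Ham's F12 medium with gentamycin and the ITS supplement, then spent 24 hours in medium that held luteinizing hormone (LH, 10 ng/mL) in every group. The 4 groups received no further agent (control), IFNT at 1 ng/mL, PGF2A at 10 ng/mL, or both (IFNT+PGF2A), with 4 samples numbered 1 to 4 in each group and 3 wells pooled per sample. The labels do not say whether a number is 1 animal, and the p-values therefore speak for the spread among these 16 samples alone. The series title asks how IFNT and PGF2A act on gene expression in these cells, and the comparisons below ask it of the SOCS family.

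Between 23786067 and 25906276 reads fell on genes in each sample. Levels are normalized counts, namely reads divided by 1 scaling factor per sample (0.963 to 1.071), and they compare samples for 1 gene but not different genes, since gene length is not in them. The 7 markers of luteal steroidogenic cells were present in all samples (CYP11A1, 10717 to 43704). Fibroblast and endothelial markers were present as well (COL1A1, 148320 to 504110; VWF, 5452 to 19120), while the B cell marker MS4A1 had a median of 0. In such bulk RNA, fewer cells of a type and less RNA per cell cannot be told apart. Samples with the same number deviated from their group means together, so each comparison is also given with the number as a replicate block where that changes a call. IFNT sample 4 stood apart from its group: 16% of the genes tested lay more than 2-fold from the mean of the other 3 IFNT samples, against 3.47% to 6.51% in the 15 other samples. Many of the results that rest on it are also given without it.

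**Figure D1:**
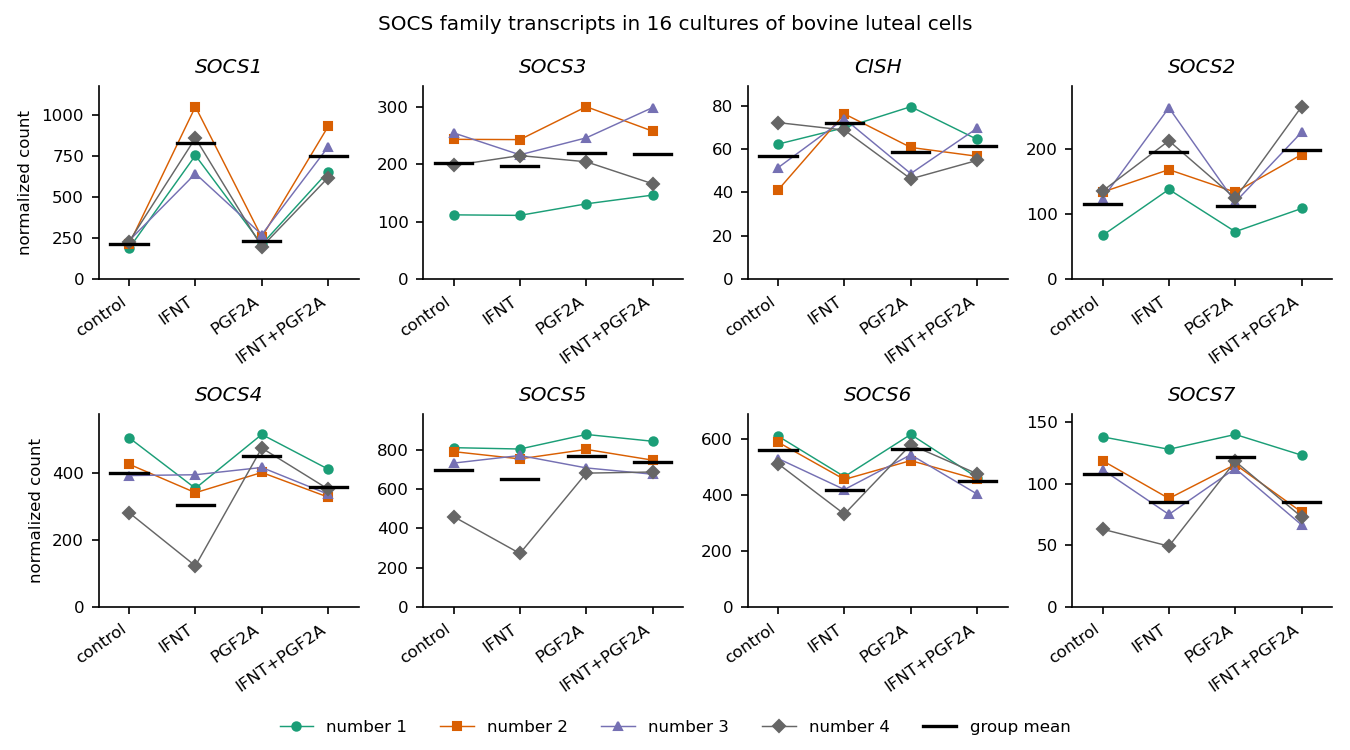
Normalized counts (y axis, linear from 0, scaled for each gene) of the 8 SOCS family genes in the 4 groups (x axis); coloured lines join samples with the same number and black bars are group means. SOCS1 stood at 618 to 1051 in the 8 samples with IFNT and at 188 to 271 in the 8 without it, and SOCS4 and SOCS5 were lowest in IFNT sample 4.

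All 8 members passed the filter on low values, which asked for 10 normalized counts or more in 4 or more samples, with 44 to 1076 reads per sample. Tests were run with limma over the 14122 genes that passed it, on log2(normalized count + 0.5), and a call is an adjusted p under 0.05. In IFNT against control 2 of the 8 members were called, SOCS1 higher and SOCS6 lower, where 24.0% of all genes tested were called. With the replicate block 3 members were called, SOCS2 joining them, against 43.5% of all genes. Added to PGF2A, IFNT gave calls in the same 2 members (IFNT+PGF2A against PGF2A), where 20.9% of all genes were called, and with the block 4 were called (SOCS1 and SOCS2 higher, SOCS6 and SOCS7 lower) against 40.3%. These shares of the family are near those of all genes, so the counts by themselves are not a result about the family, and the description below is of its individual genes. The median log2 change of the 8 genes was -0.11 in IFNT against control and -0.04 in IFNT+PGF2A against PGF2A, beside -0.04 and -0.01 over all genes tested.

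SOCS1, which binds and blocks the JAK kinases and is the best known brake on interferon signalling in mice and humans, rose with IFNT to nearly 4 times its control level. The 4 control samples held 188, 212, 234 and 229 normalized counts, in the order of their numbers, and the 4 IFNT samples held 754, 1051, 643 and 859.7. With PGF2A alone SOCS1 stood at 212, 256, 271 and 197, and with both agents at 655, 931, 806 and 618. Every sample with IFNT lay above every sample without it, whether or not PGF2A was present. Group means were 216 ± 20.8 in control, 827 ± 174 with IFNT, 234 ± 35.3 with PGF2A and 753 ± 144 with both (SD, n = 4).

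The rise of SOCS1 was 3.78-fold in IFNT against control (log2 1.92, SE 0.17, limma adjusted p = 4.7e-07) and 3.20-fold in IFNT+PGF2A against PGF2A (log2 1.68, SE 0.17, limma adjusted p = 2.2e-06). By p it ranked 183 and 237 among the 14122 genes tested in those comparisons. The same-number differences with IFNT alone were 2.0, 2.31, 1.46 and 1.91 on the log2 scale, and in the presence of PGF2A 1.63, 1.86, 1.57 and 1.65. They were all positive and were more even in the presence of PGF2A (SD 0.127) than without it (SD 0.352). The response was smaller with PGF2A in 3 of the 4 numbers, but the interaction did not pass the test (log2 -0.24, 95% interval -0.74 to 0.26, limma adjusted p = 1). Ordered by mean, SOCS1 ran from control through PGF2A and IFNT+PGF2A to IFNT, and of the neighbours only PGF2A and IFNT+PGF2A differed by more than the spread between samples.

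SOCS3, which binds the IL6 receptor chain IL6ST and the leptin and G-CSF receptors and blocks the kinases attached to them, did not pass the test with either agent. In control samples 1 to 4 SOCS3 held 112, 244, 255 and 198 normalized counts, and with IFNT 111, 243, 217 and 215. With PGF2A it held 131, 301, 246 and 205, and with both agents 146, 258, 299 and 166. Sample 1 was the lowest in all 4 groups and the groups overlapped throughout, so SOCS3 differed more between numbers than between treatments. Group means were 202 ± 65.0, 197 ± 58.4, 221 ± 71.4 and 217 ± 73.0 (SD, n = 4) in control, IFNT, PGF2A and IFNT+PGF2A.

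The log2 change of SOCS3 in IFNT against control was -0.03, with a 95% interval of -0.74 to 0.68 (limma adjusted p = 0.96). With the replicate block the interval narrowed to -0.30 to 0.23, so a rise of the size seen in SOCS1 lies outside it. Against PGF2A alone the change with both agents was -0.02, with a blocked interval of -0.29 to 0.25 (limma adjusted p = 0.92 with the block). The 4 group means of SOCS3 stood in an order, from IFNT through control and IFNT+PGF2A to PGF2A, in which no neighbours differed beyond their spread.

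CISH, which competes with STAT5 for receptors of the growth hormone, prolactin and erythropoietin type and is itself a STAT5 target, held the fewest reads of the family, 44 to 83 per sample. Its control samples stood at 62.3, 41.1, 51.4 and 72.2 normalized counts and its IFNT samples at 69.8, 76.2, 74.0 and 68.7. With PGF2A CISH held 79.5, 60.7, 48.7 and 46.2, and with both agents 64.5, 56.7, 69.6 and 54.8. The IFNT samples of CISH were the most even: samples 2 and 3 lay above the highest control, and samples 1 and 4 within the control range. Means were 56.7 ± 13.4 in control, 72.2 ± 3.5 with IFNT, 58.8 ± 15.2 with PGF2A and 61.4 ± 6.91 with both (SD, n = 4).

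The change of CISH with IFNT alone did not pass the test (log2 0.37, SE 0.20, limma adjusted p = 0.2, and 0.12 with the replicate block). Samples 1 to 3 were higher with IFNT than their same-number controls, by 0.16, 0.88 and 0.52 on the log2 scale, and sample 4 was lower, by -0.07. Without number 4 in all groups, or without control sample 4 alone, CISH passed the blocked test (log2 0.52 and 0.56, limma adjusted p = 0.0265 and 0.0252). When PGF2A was present the change was 0.09 (limma adjusted p = 0.82), with 2 numbers higher and 2 lower.

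SOCS2, known in mice as the restraint on growth hormone signalling, was the other member with higher means under IFNT, and its call depended on the block. Control samples 1 to 4 held 67.0, 134, 124 and 135 normalized counts of SOCS2, and IFNT samples 138, 168, 263 and 212. PGF2A samples held 72.8, 133, 118 and 124, and IFNT+PGF2A samples 108, 191, 225 and 265. Sample 1 was the lowest in each group, and IFNT sample 1 lay just above the highest control. SOCS2 in the IFNT and control groups therefore did not overlap, whereas IFNT+PGF2A sample 1 lay inside the range of the PGF2A group.

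SOCS2 was higher in all 4 numbers in both comparisons, by 1.03, 0.33, 1.08 and 0.65 on the log2 scale with IFNT alone and by 0.57, 0.52, 0.93 and 1.09 in the presence of PGF2A. The mean change was 1.71-fold both times, log2 0.77 (SE 0.31) and 0.78 (SE 0.31). Without the block SOCS2 did not pass (limma adjusted p = 0.08 and 0.086), and with the replicate block it rose in both comparisons (limma adjusted p = 0.0005 and 0.00054). Without number 1 in all groups it passed without the block as well (log2 0.69 and 0.85, limma adjusted p = 0.0237 and 0.009). It also passed narrowly in IFNT against control without IFNT sample 1 (0.93, adjusted p = 0.0499) or IFNT+PGF2A sample 1 (0.77, adjusted p = 0.0489), and in IFNT+PGF2A against PGF2A without IFNT+PGF2A sample 1 (1.04, adjusted p = 0.0199). DESeq2 called it with no block (adjusted p = 0.0447 and 0.0332). By mean SOCS2 stood in the order PGF2A, control, IFNT and IFNT+PGF2A (112 ± 26.9, 115 ± 32.3, 195 ± 54.6 and 197 ± 66.5, SD, n = 4), and only the step from control to IFNT exceeded the spread, with the block.

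Cell type markers were followed as lists too. Of the 8 endothelial markers, 2 rose with IFNT (TEK and ERG, log2 1.00 and 1.27) and 6 with the replicate block. Of all genes tested 24.0% were called there, and 43.5% with the block. In the presence of PGF2A 2 and 7 endothelial markers rose, beside 20.9% and 40.3% of all genes called. No marker list was tested against these shares, so the marker counts by themselves are not a result about a cell type. The summed level of the endothelial markers was 9009 to 22246 in control, 10430 to 29568 with IFNT, 8823 to 20301 with PGF2A and 11438 to 25299 with both. Number 1 was the lowest in each group, as it was for SOCS2 and also for SOCS3, which was not called with IFNT. None of the 8 was at 0 in any sample. Of the 7 luteal steroidogenic markers 2 fell with IFNT, and 4 with the block. In IFNT against control with the block, 4 of 6 macrophage markers tested rose and 1 fell. The 3 tested markers of T, NK and B cells rose there, as did 2 of 5 pericyte and smooth muscle markers. Of 5 fibroblast markers 1 rose and 2 fell. The part of the cell mixture in the SOCS2 values was not tested.

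**Figure D2:**
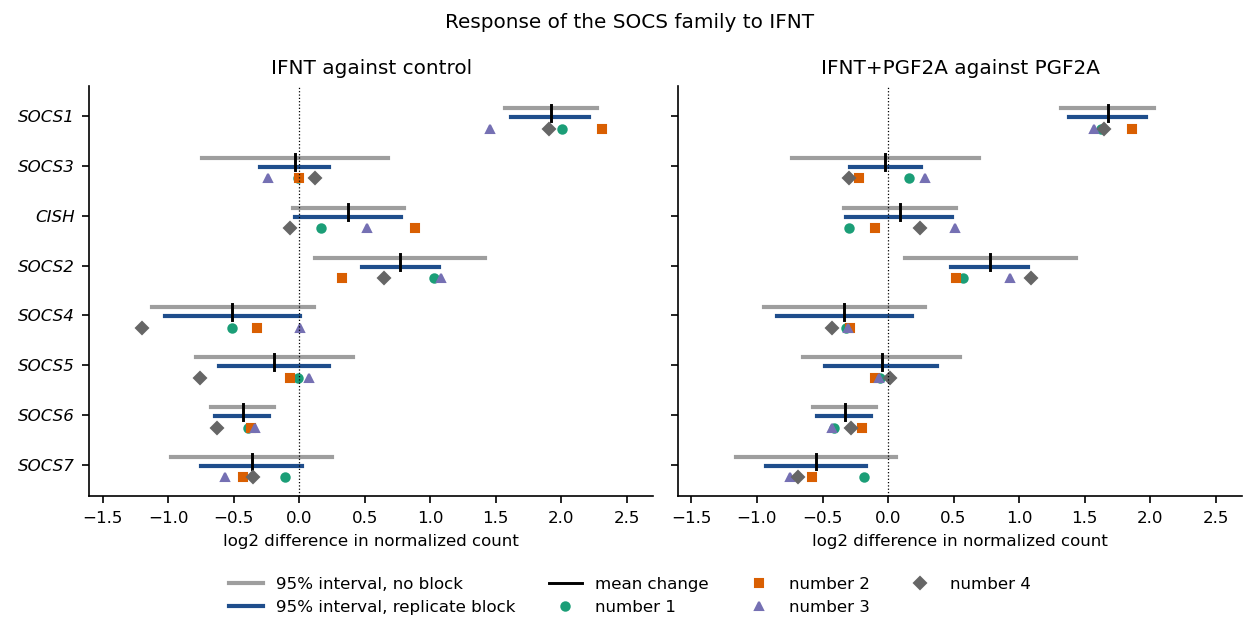
Log2 difference in normalized count with IFNT (x axis) for each SOCS family gene (y axis), without PGF2A on the left and in its presence on the right; black ticks are mean changes, grey and blue bars 95% intervals without and with the replicate block, and symbols the same-number differences. SOCS1 stands apart at 1.92 and 1.68, and SOCS6 is below 0 in all 4 numbers of both panels.

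SOCS4 and SOCS5, close relatives that bind the epidermal growth factor receptor in cell studies, had lower means with IFNT that did not pass the test. Control samples held 504, 425, 391 and 281 normalized counts of SOCS4, and IFNT samples 353, 340.0, 393 and 122. PGF2A samples held 514, 400.2, 415 and 473 of SOCS4, and IFNT+PGF2A samples 410.2, 327, 335 and 351. IFNT sample 4 lay far below the rest, and all pairs of groups compared overlapped. Means of SOCS4 were 400.1 ± 92.6, 302 ± 122, 451 ± 52.5 and 356 ± 37.6 (SD, n = 4) in control, IFNT, PGF2A and IFNT+PGF2A.

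The log2 change of SOCS4 in IFNT against control was -0.51 (SE 0.29, limma adjusted p = 0.23, and 0.1 with the block). Without IFNT sample 4 it was -0.12 (adjusted p = 0.639), and -0.16 with the block (limma adjusted p = 0.325). With the replicate block it passed without number 4 (-0.28, limma adjusted p = 0.0212) or without IFNT sample 3 (-0.70, limma adjusted p = 0.0363). The 4 same-number differences of SOCS4 in IFNT+PGF2A against PGF2A were close to each other, at -0.32, -0.29, -0.31 and -0.43. The mean of -0.34 did not pass in the fit of all 16 samples (limma adjusted p = 0.46, and 0.28 with the block), whose spread includes IFNT sample 4. In the blocked fit it passed without that sample (limma adjusted p = 0.027), without number 4 (-0.31, limma adjusted p = 0.0125), or with only the PGF2A and IFNT+PGF2A groups fitted (limma adjusted p = 0.00223). The authors' deposited table of these 2 groups gave SOCS4 a log2 fold change of -0.336 with an adjusted p of 0.0369.

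SOCS5, which also restrains the IL4 receptor in mouse T cells, held 810.3, 790.1, 732 and 459.5 normalized counts in the control samples and 803, 753, 770.5 and 272 with IFNT. With PGF2A SOCS5 held 878, 801, 707 and 681, and with both agents 843, 747, 675 and 686. Apart from sample 4 of control and of IFNT, every sample lay between 675 and 878. Means were 698 ± 162, 649.7 ± 253, 767 ± 90.3 and 738 ± 76.8 (SD, n = 4). The change with IFNT was -0.19 (SE 0.28, limma adjusted p = 0.68), and 0.19 without IFNT sample 4 (adjusted p = 0.432). That second value still holds the low control sample 4, and the blocked fit without IFNT sample 4 gave 0.09 (limma adjusted p = 0.471). The same-number differences of samples 1 to 3 were -0.01, -0.07 and 0.07. When PGF2A was present the change was -0.05 (blocked 95% interval -0.48 to 0.37, limma adjusted p = 0.86 with the block).

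SOCS6, which binds insulin receptor signalling proteins and the KIT receptor, fell with IFNT in both comparisons, marginally so in the presence of PGF2A. Its control samples held 610.1, 588, 530.0 and 511 normalized counts and its IFNT samples 465, 455, 419 and 331. The PGF2A samples held 616, 523, 543 and 579, and the IFNT+PGF2A samples 462, 455, 403 and 476. Each of the 8 samples with IFNT lay below each of the 8 without it. Mean SOCS6 levels were 560.0 ± 46.8, 418 ± 60.9, 565 ± 41.1 and 449 ± 31.8 (SD, n = 4) in control, IFNT, PGF2A and IFNT+PGF2A, so the order was PGF2A, control, IFNT+PGF2A and IFNT. At the middle step, from control to IFNT+PGF2A, the groups did not overlap, and that step was not itself tested.

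SOCS6 was 0.742 times its control level with IFNT (log2 -0.43, SE 0.11, limma adjusted p = 0.011, and 0.0024 with the replicate block) and lower in 4 of 4 numbers. Without IFNT sample 4 the change was -0.32 (limma adjusted p = 0.0157). It missed the threshold without number 2 in all groups (-0.45, adjusted p = 0.0598), without number 3 (-0.46, adjusted p = 0.0637) and with only those 2 groups fitted (adjusted p = 0.0714). SOCS6 in IFNT+PGF2A against PGF2A was 0.794 times as high (log2 -0.33, SE 0.11), and the call was marginal without the block (limma adjusted p = 0.048). Of 31 alternatives 19 lost it, 17 of them by leaving out samples, with adjusted p between 0.0516 and 0.253. With the block it passed (limma adjusted p = 0.013) except without number 1 (adjusted p = 0.0952), number 3 (0.103) or IFNT+PGF2A sample 3 (0.0519). The same-number differences were -0.41, -0.20, -0.43 and -0.28.

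SOCS7, an adaptor of insulin receptor substrates, was highest in sample 1 of each group. Control samples held 138, 119, 111 and 63.0 normalized counts of SOCS7, and IFNT samples 128, 87.9, 75 and 49.2. PGF2A samples held 139.9, 115, 112 and 118, and IFNT+PGF2A samples 123, 76.9, 66.5 and 73.0. SOCS7 was lower with IFNT than without it in every number, and the groups overlapped. In IFNT+PGF2A against PGF2A only sample 1 of the IFNT+PGF2A group reached into the range of the other. Means were 108 ± 31.8, 85.0 ± 32.8, 121 ± 12.5 and 84.9 ± 25.8 (SD, n = 4).

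The change of SOCS7 in IFNT against control did not pass (log2 -0.36, SE 0.29, limma adjusted p = 0.4, and 0.11 with the block). Without IFNT sample 4 it was -0.13 (limma adjusted p = 0.758), and -0.23 with the block (limma adjusted p = 0.274). In the blocked fit it passed without number 4 (-0.37, adjusted p = 0.0311) or control sample 4 (-0.50, adjusted p = 0.0473). SOCS7 fell in IFNT+PGF2A against PGF2A in the blocked test only (log2 -0.55, limma adjusted p = 0.2, and 0.024 with the block). That call was lost without number 2 (-0.54, adjusted p = 0.104), number 3 (-0.49, 0.132), PGF2A sample 3 (-0.55, 0.0552), PGF2A sample 4 (-0.39, 0.0882), IFNT+PGF2A sample 2 (-0.49, 0.0773) or IFNT+PGF2A sample 3 (-0.46, 0.0885).

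PGF2A changed no member of the family past the threshold. In PGF2A against control 0 of 8 were called, with and without the block, and 0 had an unadjusted p under 0.05 by limma, and edgeR and DESeq2 called 0 of them. Over all genes 0% were called without the block, where 155 genes had an unadjusted p under 0.05 and DESeq2 called 2, and 0.163% with it. The changes ran from -0.02 for SOCS2 to 0.22 for SOCS7 on the log2 scale. For SOCS1 the 95% interval was -0.24 to 0.46 and for SOCS6 -0.23 to 0.26. The blocked interval of SOCS3 was -0.13 to 0.40 and that of SOCS2 -0.31 to 0.28, so changes of 2-fold lie outside all 4 intervals.

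The highest PGF2A changes came from 1 number. In sample 4 SOCS4, SOCS5 and SOCS7 were higher with PGF2A than in control by 0.75, 0.57 and 0.90 on the log2 scale, while in samples 1 to 3 these 3 genes differed by -0.09 to 0.11. PGF2A added to IFNT (IFNT+PGF2A against IFNT) gave the same count: 0 of 8 members were called and 0 had an unadjusted p under 0.05 in either limma fit, where 0.00708% of all genes were called, and 0.701% with the block. The sample 4 differences there were 1.52 for SOCS4, 1.33 for SOCS5 and 0.56 for SOCS7, those of a comparison that contains IFNT sample 4. Without that sample the mean changes of these 3 genes in the unblocked fit were -0.03, -0.08 and -0.20, against 0.36, 0.30 and 0.04 with it. CISH was lower with both agents than with IFNT in 4 of 4 numbers, by -0.11, -0.42, -0.09 and -0.33, and did not pass (mean -0.24, limma adjusted p = 1, and 0.61 with the block).

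For the interaction of IFNT and PGF2A 0 of 8 members were called and 0 had an unadjusted p under 0.05. Over all genes 0% were called without the block and 0% with it, where 40 and 219 genes had an unadjusted p under 0.05, and edgeR and DESeq2 called 0 genes. With all 16 samples the estimates ran from -0.29 for CISH to 0.17 for SOCS4 on the log2 scale. Without IFNT sample 4 the unblocked estimates of SOCS4, SOCS5 and SOCS7 were -0.22, -0.24 and -0.42, against 0.17, 0.14 and -0.19 with it. The interval of SOCS7 with the block was -0.73 to 0.35, and its difference was negative in 4 of 4 numbers. The intervals of SOCS2 and SOCS6 with the block were -0.42 to 0.42 and -0.19 to 0.39, so a smaller change of the IFNT response by PGF2A was not detectable at this number of samples.

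**Figure D3:**
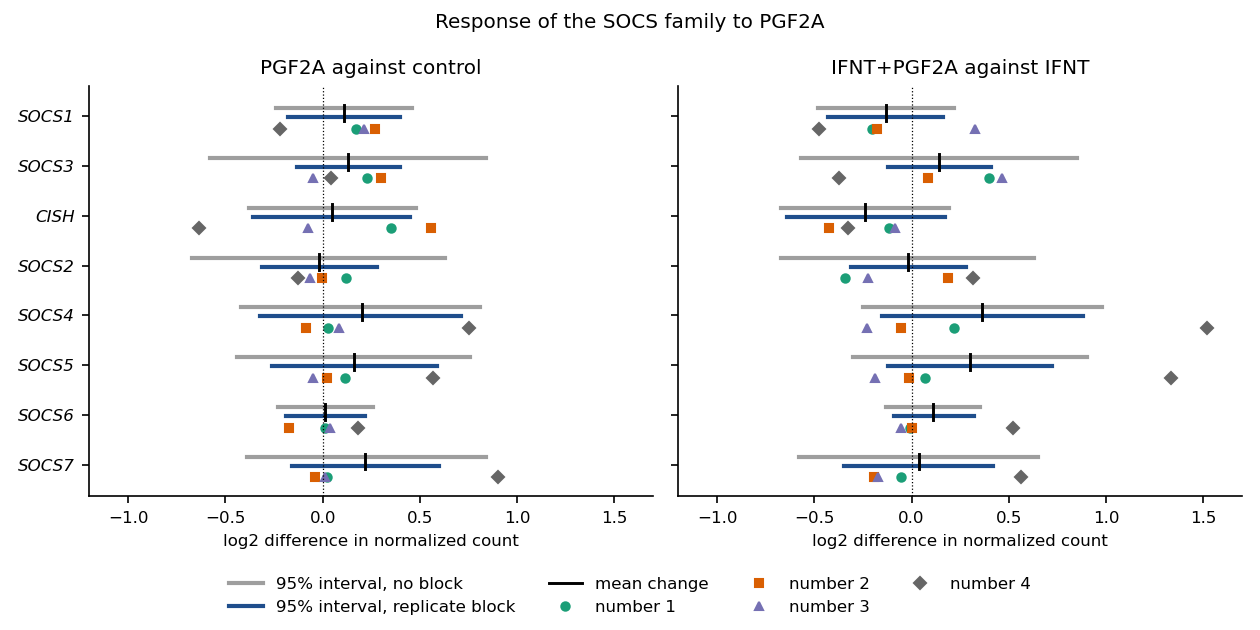
Log2 difference in normalized count with PGF2A (x axis) for each SOCS family gene (y axis), without IFNT on the left and in its presence on the right; ticks, bars and symbols are mean changes, 95% intervals without and with the replicate block, and same-number differences. The mean changes lie between -0.02 and 0.22 on the left and between -0.24 and 0.36 on the right, and sample 4 gives the highest difference for SOCS4, SOCS5 and SOCS7 in both panels.

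The members differed in how their levels followed the sample numbers. Number 1 was the lowest of its group for SOCS2 and SOCS3 in 4 of 4 groups and the highest for SOCS5 and SOCS7 in 4 of 4. Against the mean of the other 3 samples of its group, IFNT sample 4 differed on the log2 scale by -1.56 for SOCS4, -1.51 for SOCS5, -0.93 for SOCS7 and -0.43 for SOCS6. The differences for SOCS1, CISH, SOCS2 and SOCS3 lay between -0.09 and 0.26. Control sample 4 was also low in SOCS4, SOCS5 and SOCS7, at -0.64, -0.76 and -0.95.

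**Figure D4:**
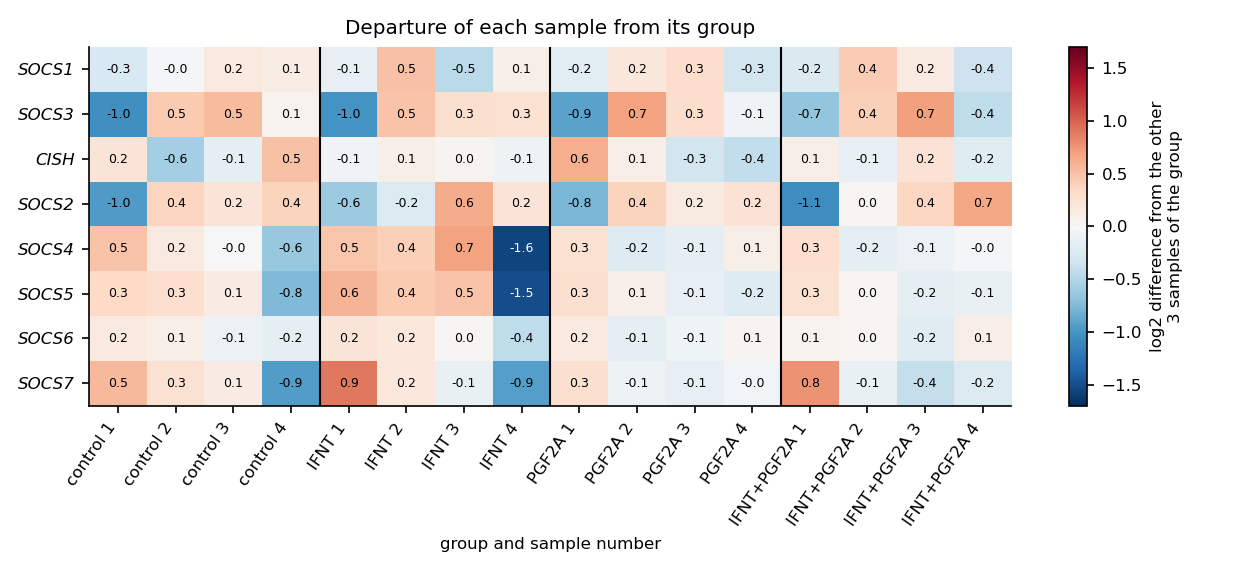
Difference of each sample (x axis) from the mean of the other 3 samples of its group, on the log2 scale, for each SOCS family gene (y axis), blue below and red above, with the value in each cell. SOCS4 (-1.56) and SOCS5 (-1.51) in IFNT sample 4 are the lowest values.

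The kinase, STAT and IRF9 genes, whose proteins carry the cytokine signal that the SOCS proteins restrain, were followed as a list. Counts of this list and of those below are to be read beside the shares of all genes called. These shares were 24.0% in IFNT against control (43.5% with the block) and 20.9% in IFNT+PGF2A against PGF2A (40.3% with the block). No list was tested against them, so the counts by themselves are not a result about a list. Of 12 kinase, STAT and IRF9 genes tested 6 rose and 1 fell with IFNT (6 and 2 with the block), and 5 rose and 1 fell in the presence of PGF2A (7 and 2 with the block). Without IFNT sample 4 the unblocked counts were 7 and 1 with IFNT alone and 6 and 1 in the presence of PGF2A. STAT2 rose by 2.37, IRF9 by 2.41 and STAT4 by 0.88 on the log2 scale in IFNT against control (limma adjusted p = 4e-09, 2.5e-07 and 0.0045). The kinase TYK2, which is bound to the type I interferon receptor, fell by 0.37.

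Among the other brakes on this pathway 4 of 13 tested rose and 1 fell with IFNT, 5 and 3 with the block, and 5 and 2 in the unblocked fit without IFNT sample 4. USP18, which detaches JAK1 from the type I interferon receptor, held 137 ± 48.6 normalized counts in control, 4605 ± 522 with IFNT, 236 ± 169 with PGF2A and 4665 ± 326 with both (SD, n = 4). Its log2 changes were 5.12 and 4.55 (limma adjusted p = 3e-08 and 1.3e-07). USP18 therefore had the larger IFNT change on the log2 scale than SOCS1, and the difference between the 2 genes was not tested. The STAT inhibitor PIAS1 rose by 0.83 and the phosphatase gene PTPN6 by 1.39, while PIAS2 fell by 0.99 (limma adjusted p = 6.5e-05, 0.0008 and 0.00038). When PGF2A was present 3 rose and 1 fell, with the block 5 and 1, and without IFNT sample 4 in the unblocked fit 5 and 2.

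Of 14 tested genes known as STAT targets 3 rose and 1 fell in each IFNT comparison, and with the block 4 rose and 3 fell with IFNT alone and 5 rose and 3 fell in the presence of PGF2A. IRF1, a transcription factor that drives SOCS1 in other cells, rose by 1.99 and 2.09 on the log2 scale, and the kinase gene PIM1 by 1.13 and 0.90 (limma adjusted p = 6.9e-07, 4.7e-07, 6.9e-07 and 8.4e-06). ID1 rose by 0.68 and 0.71, and PIM2 fell by 1.45 and 1.1. The cyclin gene CCND1 of this list was the only gene of all tested that was called in IFNT+PGF2A against IFNT (log2 1.04, limma adjusted p = 0.0087), and is named here because of that count.

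Of 18 tested receptor genes on whose proteins SOCS proteins act, 2 rose and 2 fell with IFNT, beside 24.0% of all genes called. With the block 3 rose and 3 fell, beside 43.5%. In the presence of PGF2A 2 rose (20.9% of all genes), and with the block 5 rose and 1 fell (40.3%). Without IFNT sample 4 the unblocked counts were 2 and 3 with IFNT alone and 2 and 1 in the presence of PGF2A. In IFNT against control IL15RA rose by 1.37 and IL7R by 1.89, and IFNGR2 fell by 0.24 (limma adjusted p = 1.8e-07, 0.013 and 0.027). IL6ST, the signalling chain to which SOCS3 binds, stood at 29060.0 ± 6392 normalized counts in control and 15627 ± 6319 with IFNT (SD, n = 4), a log2 change of -0.99 (limma adjusted p = 0.017) that was -0.62 without IFNT sample 4 (adjusted p = 0.0098). In the presence of PGF2A the change of IL6ST was -0.66 (limma adjusted p = 0.11, and 0.028 with the block), and it passed without IFNT sample 4 (adjusted p = 0.0045). The prolactin receptor gene PRLR had group means of 3.34 to 4.71 normalized counts and did not pass the filter. Of 11 ligand genes tested 3 rose with IFNT, CSF2 by 2.76, IL15 by 1.80 and LIF by 1.00, and none fell. Without IFNT sample 4, in the unblocked fit, LIF no longer passed (log2 0.80, adjusted p = 0.05 after rounding). In that fit IL7 rose by 2.05 (adjusted p = 0.0057) and IL11 fell by 0.82 (adjusted p = 0.034). With the replicate block LIF passed with all samples and without IFNT sample 4 (limma adjusted p = 5.7e-05 and 7e-05). LIF also rose in IFNT+PGF2A against PGF2A (log2 1.41, limma adjusted p = 0.0025). IL15, CSF2, IL7 and IL7R had control means of 6.26, 4.13, 3.63 and 7.27 normalized counts, so their changes rest on few reads. In the presence of PGF2A 4 ligand genes rose, and 5 with the block.

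Of the 5 ligase genes, whose proteins are the partners of the SOCS box, 1 fell with IFNT alone, ELOC by 0.35 (limma adjusted p = 0.025), and with the block ELOB and RNF7 fell as well. Without IFNT sample 4 the count in the unblocked fit was 3. In the presence of PGF2A none was called without the block (ELOC -0.28 and RNF7 -0.44, limma adjusted p = 0.077 and 0.058), and the same 3 fell with it. Without IFNT sample 4 RNF7 passed there without the block (adjusted p = 0.041), and 4 fell with it. Of 19 other SOCS box genes tested 3 fell with IFNT and none rose, and with the block 7 fell and 4 rose. SPSB1 fell by 0.78, RAB40C by 0.52 and WSB2 by 0.24 (limma adjusted p = 0.00055, 0.0049 and 0.017). With PGF2A present 4 fell, and 8 with the block, where 2 rose. Without IFNT sample 4 the unblocked counts of other SOCS box genes that fell were 5 and 6.

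Of 10 genes of insulin and growth factor signalling, the pathway in which SOCS6 and SOCS7 act, 2 rose and 1 fell in each IFNT comparison, and 3 and 2 with the block. Without IFNT sample 4 the unblocked counts were 3 and 1 in each comparison. The insulin receptor gene INSR fell by 0.51 and 0.49 on the log2 scale (limma adjusted p = 0.011 and 0.015). The focal adhesion kinase gene PTK2 rose by 0.37 and 0.43 (limma adjusted p = 0.0023 and 0.00081), and the adaptor gene GAB1 by 0.40 and 0.48 (limma adjusted p = 0.014 and 0.0054).

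**Figure D5:**
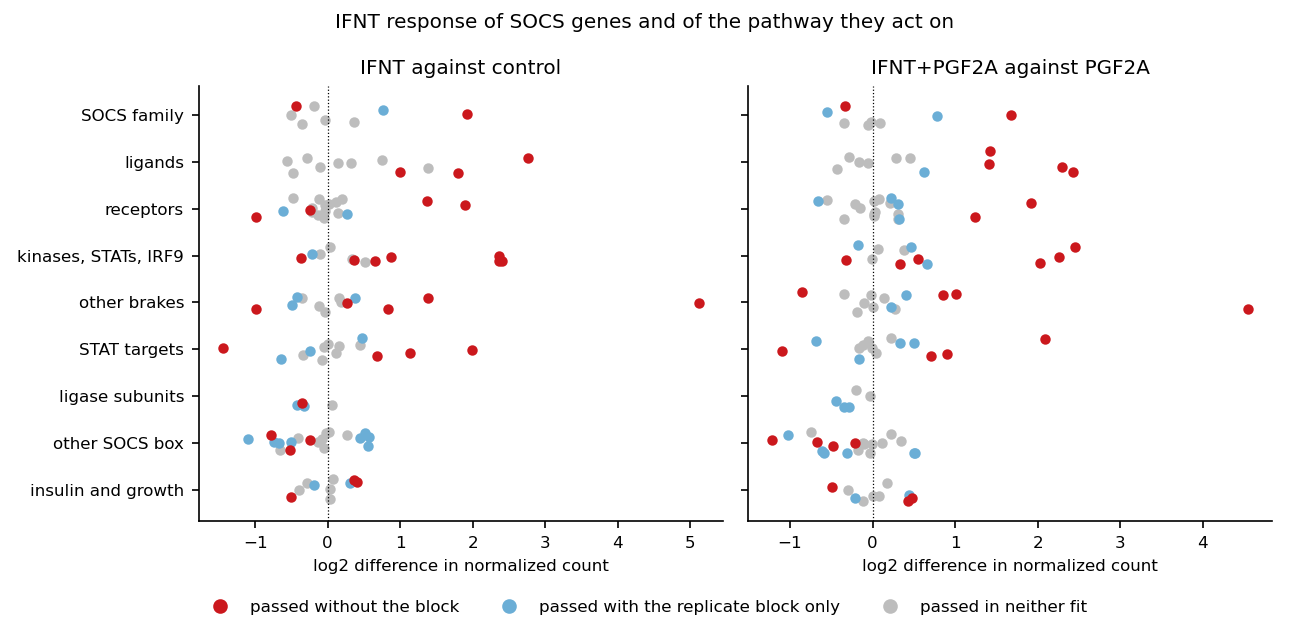
Log2 difference in normalized count with IFNT (x axis) for each tested gene of the SOCS family and of 8 lists of its pathway (y axis), without PGF2A on the left and in its presence on the right; red points passed the test without the block, blue with the replicate block only, grey in neither. USP18 at 5.12 and 4.55 is the rightmost point, and SOCS1 at 1.92 and 1.68 is the highest of its family.

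The genes whose profiles over the 16 samples lay nearest to each member were found by the root mean square difference of mean-centred log2 levels, among 11906 genes with a mean of at least 50. For SOCS1 these were IRF3 (0.172), UNC93B1 (0.178) and ELMO2 (0.179), where the median gene lay at 0.973. IRF3 held 1304 ± 26.5 normalized counts in control, 4537 ± 698 with IFNT, 1308 ± 130.1 with PGF2A and 4102 ± 397 with both (SD, n = 4). For SOCS2 they were RHOJ (0.181), FLI1 (0.190) and PKIG (0.211), and for SOCS3 SPINT1 (0.203), GSTO1 (0.212) and CARD10 (0.215). FLI1 stood at 485 ± 115, 814 ± 222, 496 ± 105 and 843 ± 231 in control, IFNT, PGF2A and IFNT+PGF2A.

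For SOCS4 the nearest genes were KIF3A (0.103), OSBPL8 (0.111) and CREB3L2 (0.117), for SOCS5 TNKS2 (0.0833), CEP170 (0.0911) and EXOC8 (0.0952), and for SOCS6 RTN4 (0.0761), AQR (0.0811) and CTR9 (0.0827). Near SOCS7 lay SS18L1 (0.183), SLC16A1 (0.194) and HAPSTR1 (0.197), and near CISH FTL (0.189), IKBKG (0.191) and TBP (0.191). The distances for SOCS1, SOCS4, SOCS5 and SOCS6 were the smaller relative to the median gene (0.973, 0.535, 0.489 and 0.340), while those of CISH stood against a median of 0.388. All these profiles share the same 16 libraries, and those of SOCS4 and SOCS5 hold the low IFNT sample 4.

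The authors' deposited tables, scaled and tested separately for each pair of groups, called SOCS1, SOCS6 and SOCS2 in IFNT against control, with log2 fold changes of 1.94, -0.425 and 0.764 and adjusted p of 7.58e-23, 0.0325 and 0.0481. For IFNT+PGF2A against PGF2A the authors' deposited table called SOCS1, SOCS2, SOCS4 and SOCS6 (1.69, 0.822, -0.336 and -0.328) and gave SOCS7 an adjusted p of 0.0783. Of all genes listed, the authors called 2981 of 16037 in the first comparison and 4404 of 15390 in the second. Their main effect of IFNT called SOCS1, SOCS2 and SOCS6 (authors' adjusted p = 2e-41, 0.00517 and 0.000137) and no other member, beside 4824 of 15775 genes. In the authors' deposited tables of PGF2A effects and of the interaction every member had an adjusted p of 1.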

How the data were processed

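RNA from 16 cultures was sequenced on the DNBSEQ platform as 100 bp pairs, per the labels' protocols. Tools named in the submitters' processing notes are RSEM 1.2.8, Bowtie2 2.2.5, HISAT2 2.0.4 and DESeq2. For genome build, annotation and strand use, the sources used here give nothing, so reads of an overlapping or antisense neighbour cannot be told from a member's own. The deposited values are a signal per gene. Dividing each by its sample step gave whole read counts for 100% of values (tolerance 0.001 reads) in each sample, so each had 1 size factor. In PGF2A samples 2 and 3 that factor is near 1 (1.004 and 1.007), so their steps lie close to 1 read. The authors' deposited tables also give the log2 fold change with its test score, raw p-value and adjusted p-value. The 16-sample table was used for levels and tests. Of its gene IDs 17768 matched RefSeq names. No column came from a sample outside the labels.

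The main test was limma 3.58.1 (R 4.3.3) with an intensity trend on log2(normalized count + 0.5), 1 mean per group over all 16 samples, Benjamini-Hochberg adjustment over 14122 genes with at least 10 in at least 4 samples, and a threshold of 0.05. Fold changes on this scale understate those of low genes, and intervals are 95%. Alternatives used edgeR 4.0.16 (quasi-likelihood) and DESeq2 1.42.0 on the recovered reads, TMM scaling, other filters and pseudocounts, and samples left out. The script was tested on simulated data.

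Sample numbers were checked as pairs: deviations from group means correlated at 0.352 to 0.719 (median 0.640) over 24 same-number pairs, and at most 0.0402 over 72 others. The pairing comes from the data, not the labels. The family and all lists were chosen with earlier results of these data known. Named are all members, for each list at most the 4 called genes with the smallest adjusted p (the 2 smallest where none was called), USP18, IRF1, PIM1, PRLR and IL6ST, and the 3 genes most like each member. One further gene that this rule names is not reported here. Reads carry no molecular identifiers, so read numbers cover counting error only.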

Additional observations from a re-analysis of the deposited data

Results flagged for a closer look

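Each member was looked at in each group for a sample far from its 3 companions, 32 groups of 4 values in all, and 2 were found. SOCS2 in control sample 1, at 67.05 normalized counts, lay far below the other control samples at 124 to 135. SOCS5 in IFNT sample 4, at 271.9 normalized counts, lay far below the other IFNT samples at 753 to 803. Chance alone marks about 1 in 20 such groups. Number 1 was also the lowest for SOCS2 in the other 3 groups. In IFNT sample 4, 12.1% of the genes tested were at least 2-fold below the mean of the other 3 samples. The origin of either value was not tested.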

How the results depend on the processing

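SOCS1 kept its direction and its call in both IFNT comparisons under all 31 alternatives (log2 1.79 to 2.07 and 1.57 to 1.77). No result changed sign while called. The number of members called in IFNT against control was 1 with only the groups compared, 1 to 3 when samples were left out, and with the replicate block 3 to 6. The highest value came without number 4, and 5 were called without control sample 4. In IFNT+PGF2A against PGF2A the number was 4 with the replicate block, in limma and in edgeR, 1 with TMM scaling and with no filter, 1 to 2 with samples left out, and 2 to 5 with the block, the lowest without number 3 or IFNT+PGF2A sample 3. Over all genes, calls in IFNT against control were 3384, 2118 with only the groups compared, 6140 with the block (edgeR 6126) and 1809 to 4273 with samples left out. In IFNT+PGF2A against PGF2A they were 2948, with the block 5696 (edgeR 5740), and with samples left out 1463 to 4094, or 3784 to 7587 with the block. In PGF2A against control they were 0, and 2 with no filter or by DESeq2, and 0 to 1 with samples left out. With the block they were 23 (edgeR 28, DESeq2 102, only the groups compared 81, samples left out 0 to 122). In IFNT+PGF2A against IFNT they were 1 (DESeq2 9, samples left out 0 to 2), and with the block 99 (edgeR 91, DESeq2 204, only the groups compared 1, samples left out 0 to 334). The interaction needs all 4 groups, so no fit of only the groups compared was run for it. The blocked fits without a single sample, the blocked fits with TMM scaling, other filters, DESeq2 or only the groups compared, and the list counts without IFNT sample 4 were chosen after seeing the data. The cause of these shifts was not tested. With 4 samples a group, changes such as those of CISH and SOCS7 cannot be placed firmly on either side of the threshold.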
